A study of Mus musculus with 2 samples.

Results

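The genes described here build the junctions that hold keratinocytes to each other: Cdh1, Cdh3, Ctnnb1, Ctnna1, Ctnnd1, Jup and Vcl of the adherens junction and Dsp, Pkp1 and Dsc1 of the desmosome, with Jup shared by both. They were chosen by symbol in the annotated expression table, 10 genes of 17871 on the array. The rule found 12 probes of 8 genes among 25697 probes, and no probe carried the symbol Ctnnd1 or Dsp.

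The tissue was wounded back skin of C57BL6 mice aged 3 months and kept on a low calcium diet. In the knockout (KO) mice both Vdr alleles, which encode the vitamin D receptor, are floxed and Cre recombinase is driven by the K14 promoter. The receptor is therefore meant to be lost from keratinocytes that express Krt14 and from their descendants, and kept in other cell lineages. The controls (CON) are littermates with floxed Vdr alleles. Each mouse had 2 full-thickness punch wounds of 6 mm, and after 3 days the wound was cut out with a punch of 8 mm, which takes wound, edge and neighbouring skin together. There were 2 arrays, 1 KO and 1 CON, each read as a pool of RNA from 3 mice, so no difference below has a replicate check.

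In an adherens junction, classical cadherins of neighbouring cells bind each other through their outer domains in the presence of calcium. Inside the cell they hold p120-catenin and either beta-catenin or plakoglobin, to which alpha-catenin is bound, and alpha-catenin and vinculin connect the complex to actin. In a desmosome, desmogleins and desmocollins take the place of the classical cadherins, plakoglobin and plakophilins bind their tails, and desmoplakin ties them to keratin filaments. Beta-catenin is also the coactivator of Wnt target genes. In skin these junctions are known for keeping the epidermis and the hair follicle intact under stretch, and they are taken apart and rebuilt as keratinocytes migrate over a wound.

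The junction genes lay mostly at or below the control level in knockout wounded skin. Of the 8 measured genes, all above the detection floor on both arrays, 6 were lower and 2 higher in KO. Cdh1 (-0.0013) and Vcl (-0.02) count among the 6, although they hardly differed. Of the 8933 genes above the floor on both arrays, 4109 were lower and 4814 higher, which is the background for each count of direction below. The median log2 difference was -0.14 for the junction genes, against 0.02 over all 8933 genes. The 3 further probes above the floor, of Cdh3 and Ctnnb1, were lower too. P-cadherin (Cdh3), beta-catenin (Ctnnb1) and desmocollin 1 (Dsc1), 3 of 8 genes, were lower by at least 0.32 on the log2 scale, a ratio of 5 to 4 that serves as the smaller threshold below, against 7.49% of all genes, and 0 were as much higher, against 11.1% of all genes. At 1.5-fold, 1 gene (Cdh3) was lower, against 2.51% of all genes, and 0 were higher, against 3.56%. The members were picked with these values known, and levels in whole skin cannot tell fewer cells of a type from less RNA per cell.

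Some facts of the arrays frame these values. Raw signals had a median of 165.8 in KO and 180.0 in CON, and the authors' normalization brought it to 169.9 in both. The central 95% of all genes lay between -0.58 and 0.65 on the log2 difference scale, and the middle 50% between -0.11 and 0.16. Where a gene had several probes, their log2 differences scattered with an SD of 0.14 (2131 genes), a spread between probes and not between mice. Vdr was at 2076.0 in KO and 2596 in CON skin by its brightest probe, at 1429.9 in KO and 1674 in CON by the next, and at 217 in KO and 212 in CON by a dim one. Skin identity was as labelled: all 6 basal and all 8 suprabasal keratinocyte markers were above the floor on both arrays.

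**Figure D1:**
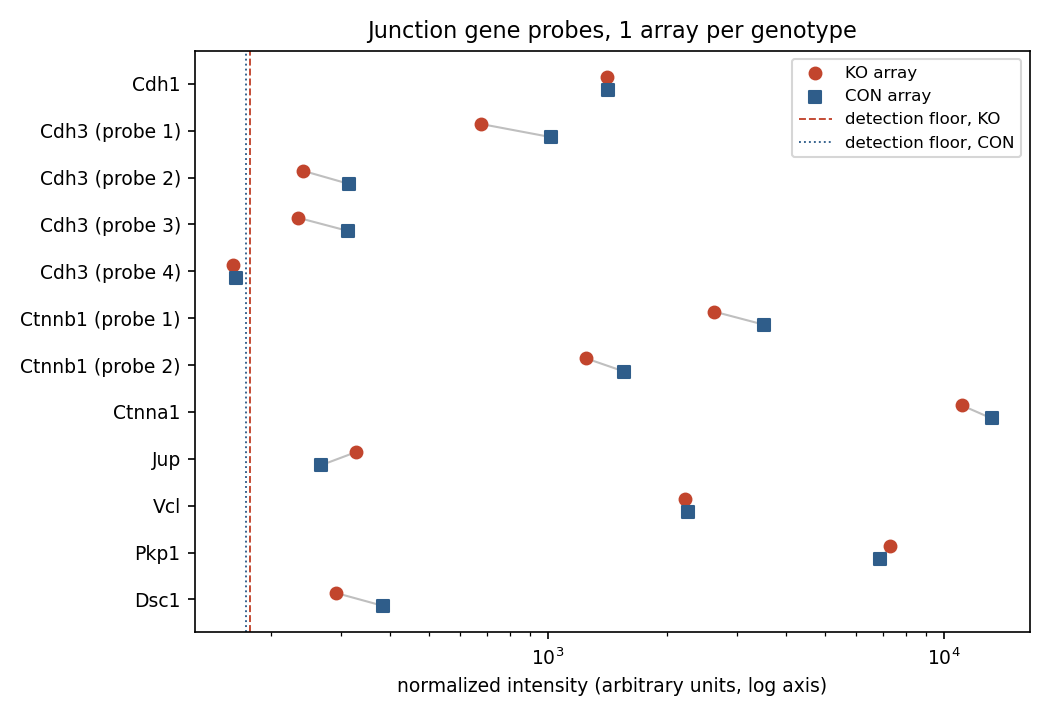
Normalized intensity (horizontal log axis, arbitrary units) of the 12 probes of the 8 measured junction genes, with circles for the KO array and squares for the CON array, 1 array each, and vertical lines for the detection floors. The KO value lies left of the CON value for Cdh3, Ctnnb1, Ctnna1 and Dsc1 and right of it for Jup, while the 2 marks nearly coincide for Cdh1 and Vcl.

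The cadherins differed between themselves. Cdh1 encodes E-cadherin, the classical cadherin of all living epidermal layers, and was at 1413 in KO skin against 1414.5 in CON skin. Its log2 difference of 0.00 lay near the middle of all genes. Cdh3 encodes P-cadherin, which is known from the basal layer and the hair follicle matrix, and was at 679 in KO against 1019.7 in CON skin by its brightest probe. That is 1.5-fold lower, a log2 difference of -0.59 at percentile 2.50 of all genes and 5.15 of the tenth of genes nearest to it in intensity. Both dimmer Cdh3 probes above the floor ran the same way: one was at 241 in KO and 315 in CON, and the other at 234 in KO and 313 in CON, with log2 differences of -0.39 and -0.42. The remaining Cdh3 probe, at 160.4 in KO and 163 in CON, was below the floor on both arrays. The genes Cdh3 and Cdh1 are direct neighbours on chromosome 8 in the RefSeq table of GRCm38.p6.

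Dsc1 encodes desmocollin 1, the desmocollin of the upper epidermis. It was at 291 in KO against 384 in CON skin, 1.32-fold lower with a log2 difference of -0.40. At 1.65 times the floor in KO and 2.23 times in CON, this is a dim probe, and background in the signal understates its fold. After background correction by neqc the difference was -0.64.

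Growing hair follicle genes were measured beside the junction genes. All 9 follicle markers above the floor on both arrays were lower in KO, with a median log2 difference of -6.03 and a summed intensity of 3089 in KO and 161102 in CON skin, and the other 3 were above the floor in CON only. The inner root sheath keratin Krt71 was at 618 in KO and 34898 in CON, and Krt27 at 686 in KO and 30589 in CON. Melanocyte markers were lower as well, 4 of 4 above the floor, with a summed intensity of 1110.1 in KO and 11166 in CON skin and with Dct at 460.5 in KO and 5377 in CON and Pmel at 199 in KO and 2686 in CON. The part of these cells in the lower junction genes was not tested.

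Among the catenins, those of the alpha and beta class were lower and plakoglobin was higher. Ctnnb1 encodes beta-catenin and was at 2628 in KO against 3512 in CON skin by its brighter probe, 1.34-fold lower with a log2 difference of -0.42 at percentile 4.43 of all genes. Its other probe was at 1249.8 in KO and 1559 in CON, a log2 difference of -0.32, so that both probes ran the same way. Ctnna1, alpha-catenin, was at 11094 in KO against 13211 in CON skin, 1.19-fold lower. Jup encodes plakoglobin (gamma-catenin), the close relative of beta-catenin that serves in both junctions, and was at 327 in KO against 267 in CON skin, 1.23-fold higher. Its log2 difference of 0.29 lay at percentile 87.2 of all genes. The Jup probe is dim, against a floor of 176.8 in KO and 172.3 in CON, and with neqc the difference was 0.53.

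Vcl encodes vinculin, which reinforces the junction under tension and also sits in focal adhesions. It was at 2213 in KO against 2251 in CON skin, a log2 difference of -0.02. Pkp1, plakophilin 1 of the suprabasal desmosome, was at 7320.4 in KO against 6912 in CON skin, 1.06-fold higher. Neither value left the middle 50% of all genes.

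The remaining pair of genes was looked for under older names. A probe named Catns in the file matched Ctnnd1, p120-catenin, by transcript identifier in the RefSeq table. It was below the floor on both arrays, at 149.6 in KO and 158 in CON, and gives no difference. A probe named 5730453H04Rik, which the table lists as a synonym of Dsp, was at 4711 in KO and 5482 in CON skin, 1.16-fold lower. Its transcript identifier is not among those the table gives for Dsp, so that it is named here as in the file and enters no count of the members.

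**Figure D2:**
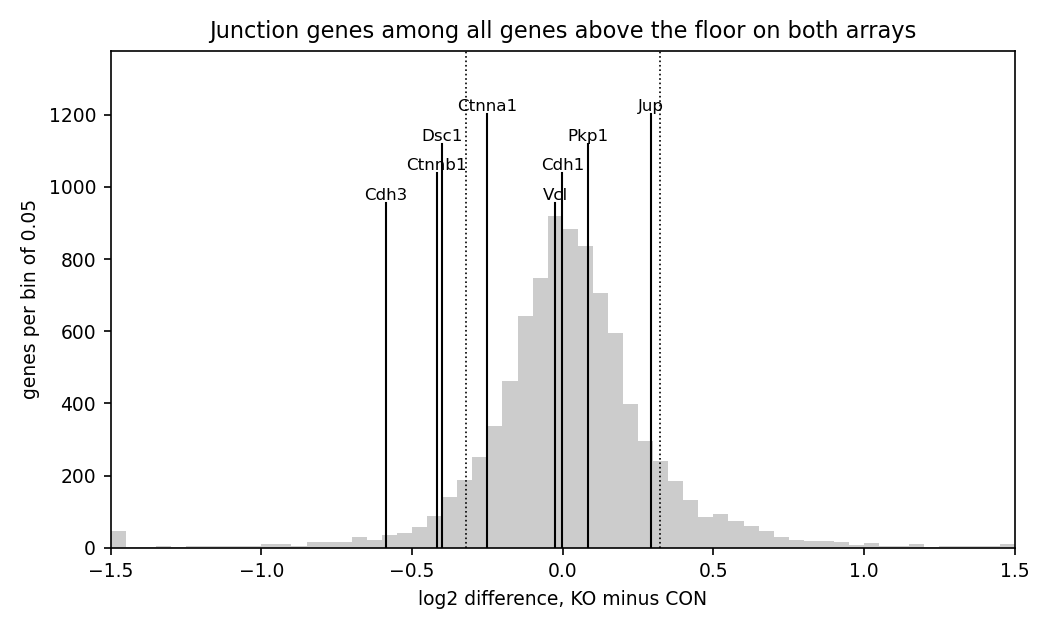
Histogram of the log2 difference, KO minus CON, of the 8933 genes above the floor on both arrays (bins of 0.05; 45 genes below -1.5 and 9 above 1.5 are gathered in the outermost bins), with a line for each of the 8 measured junction genes and dotted lines at a ratio of 5 to 4. Cdh3, Ctnnb1 and Dsc1 stand outside the lower dotted line, and Jup lies just inside the upper one.

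The promoters of Ctnnb1 and Jup are shown because these related catenins differed in opposite directions. The sequences are the 250 bases before a start of transcription in RefSeq, for Ctnnb1 the first of 2, build GRCm38.p6, at chr9:120933150-120933399 on the plus strand for Ctnnb1 and at chr11:100397791-100398040 on the minus strand for Jup, printed in the direction of the gene. Capitals mark the GC box, GGGCGG or its reverse complement CCGCCC.
Ctnnb1: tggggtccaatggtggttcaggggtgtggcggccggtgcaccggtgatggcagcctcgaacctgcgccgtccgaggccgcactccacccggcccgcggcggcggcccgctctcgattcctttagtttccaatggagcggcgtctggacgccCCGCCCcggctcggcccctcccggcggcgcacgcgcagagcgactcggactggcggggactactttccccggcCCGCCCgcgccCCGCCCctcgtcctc
Jup: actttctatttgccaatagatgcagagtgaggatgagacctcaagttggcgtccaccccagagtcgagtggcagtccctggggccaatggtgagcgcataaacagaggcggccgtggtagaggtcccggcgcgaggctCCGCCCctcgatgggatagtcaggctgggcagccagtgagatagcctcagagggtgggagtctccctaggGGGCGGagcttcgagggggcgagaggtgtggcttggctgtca

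The printed Ctnnb1 promoter held 3 GC boxes and the Jup promoter 2, a motif found on either strand in 32.7% of 32851 promoters of the same length. RefSeq gives Ctnnb1 a further start, whose promoter overlaps the printed one and held 2 GC boxes and 1 TATAAA (12.4% of promoters). The sequence was 74.8% G and C in Ctnnb1 and 62.0% in Jup, against a median of 52.4% over all promoters. Neither printed window held the nuclear receptor half-site AGGTCA, found in 14.0% of promoters on either strand, or its direct repeat with a spacer of 3 bases, found in 2 promoters. Neither held the E-box CACCTG (17.2%) or the Tcf/Lef core CTTTGA (13.8%). These are matches of letters in a short window and no binding was measured. The promoter table had entries for 5 of the 10 genes (Ctnnb1, Jup, Vcl, Dsp and Ctnnd1).

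Desmosome genes outside the rule were lower too. Of 13 on the array, 7 were above the floor on both arrays, 6 of these were lower and 4 were lower past the ratio of 5 to 4 (5 with neqc and 3 with the mean over probes), against the 7.49% of all genes given above, with a median log2 difference of -0.35. Cdsn encodes corneodesmosin, an adhesive protein of the cornified layer, and was at 11408 in KO against 15937 in CON skin, 1.40-fold lower. Ppl, periplakin, which links desmosomes to the cornified envelope, was at 4098 in KO against 5208 in CON, 1.27-fold lower, while its dim probe was at 251.5 in KO and 267.5 in CON, and the mean over both probes was -0.22 and inside the ratio of 5 to 4. Plakophilin 3 (Pkp3), found in desmosomes of all epidermal layers, was at 2300.3 in KO against 3204 in CON, 1.39-fold lower. Plakophilin 2 (Pkp2) was at 246 in KO against 351 in CON, 1.43-fold lower, and a further probe, at 241 in KO and 289.6 in CON, ran the same way.

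Of the desmosomal cadherins in the list, 3 were above the floor on both arrays and lay within the ratio of 5 to 4. Desmocollin 3 (Dsc3), of the basal layer, was at 457 in KO against 512 in CON skin, and desmoglein 3 (Dsg3), the target of autoantibodies in pemphigus vulgaris, at 336 in KO against 328.5 in CON, a direction that turned with raw intensities shifted to the same median (-0.03). Dsg1b was at 251 in KO against 287 in CON and passed the ratio with neqc (-0.39). Dsg4, the desmoglein of the hair shaft, was above the floor in CON only, at 185.3, and at least 1.05-fold lower in KO. Dsg1a, Dsg1c and Dsc2 were below the floor on both arrays, and Dsg2 (165.3 in KO, 173.2 in CON) and Perp (169.0 in KO, 174.1 in CON) were just above it in CON only, which gives no fold.

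Epidermal markers did not share this direction. Basal keratinocyte markers had a median log2 difference of 0.07, with 5 of 6 higher (4 with raw intensities) and a summed intensity of 67360 in KO and 64832 in CON skin. Krt14 was at 35507 in KO and 34643 in CON, and Krt5 at 11002 in KO and 10273.5 in CON. Suprabasal markers had a median of 0.28, with 7 of 8 higher and a summed intensity of 104481 in KO and 85210.3 in CON skin. Krt10 was at 30201 in KO and 26915 in CON, and loricrin (Lor) at 25788 in KO and 20984 in CON. Involucrin (Ivl), at 1354 in KO against 1903 in CON, was the lower one among them and is named after its value was seen. Sebaceous gland markers were higher, 7 of 7, with a median of 0.88 and a summed intensity of 57561 in KO and 30145 in CON skin, with Elovl4 at 17837 in KO and 9709 in CON and Fa2h at 17386 in KO and 7583 in CON.

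**Figure D3:**
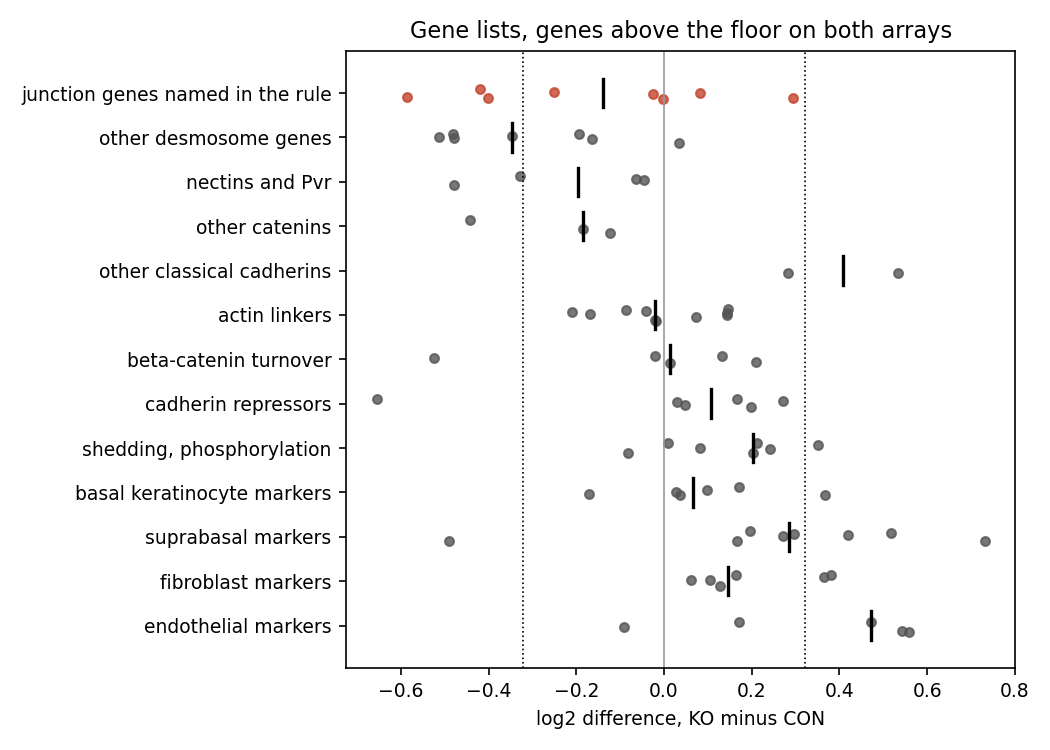
Log2 difference, KO minus CON, of each gene above the floor on both arrays, by gene list, with a point per gene, a bar for the list median and dotted lines at a ratio of 5 to 4. The list labelled other classical cadherins includes the non-classical T-cadherin. The medians of the junction genes and other desmosome genes, -0.14 and -0.35, lie left of 0, and those of the basal and suprabasal keratinocyte markers, 0.07 and 0.28, lie right of it; hair follicle, melanocyte and other marker lists are not drawn.

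Nectins, which start cell contacts beside the cadherins, were lower by their brightest probes, 4 of 4 list genes above the floor on both arrays with Pvr counted among them, with a median of -0.20. Past the ratio of 5 to 4 there were 2, against 7.49% of all genes. Of the 3 Pvr probes 1 was lower, and the mean over them was 0.00. Nectin2 was at 1014 in KO against 1273 in CON skin, a log2 difference of -0.33, and all 3 of its probes were lower. It fell short of the ratio with an offset of 50 (-0.31) and with the mean over probes (-0.27). Nectin3 was at 506 in KO against 705 in CON, 1.39-fold lower, while its dim probe was at 236 in KO and 269 in CON. Nectin1 was above the floor in KO only, at 193, and at least 1.12-fold higher. Other genes named for catenins were also lower, 3 of 3 above the floor. Ctnnbip1, an inhibitor of the binding of beta-catenin to Tcf factors, was at 1376 in KO against 1498 in CON, and Ctnnal1, a relative of alpha-catenin, at 981 in KO against 1115 in CON. Ctnnbl1, which despite its name is a spliceosome-associated protein, was at 667 in KO against 907 in CON, 1.36-fold lower, and its further probe was below the floor.

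Of the other listed cadherins, which are classical ones and the non-classical T-cadherin, the 2 above the floor on both arrays were higher. VE-cadherin (Cdh5), of endothelial junctions, was at 301 in KO against 248 in CON skin, 1.22-fold higher. T-cadherin (Cdh13), which is anchored in the membrane without a catenin-binding tail, was at 589 in KO against 407 in CON, 1.45-fold higher, and its further probe was at 282 in KO and 266 in CON. The mean over both probes was 0.31, short of the ratio of 5 to 4, while Cdh5 passed it with neqc (0.55) and with normexp (0.41). Of the endothelial markers, 4 of 5 above the floor were higher, with a median of 0.47 and a summed intensity of 4147 in KO and 3311 in CON skin. Among these markers Eng was at 1034.5 in KO and 702 in CON, and Emcn at 893 in KO and 952 in CON. Their part in the cadherin values was not tested. Cdh6 was above the floor in CON only, at 245, and at least 1.38-fold lower in KO. N-cadherin (Cdh2), the cadherin of mesenchymal cells, Cdh4 and Cdh11 were below the floor on both arrays.

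The actin linkers of the junction differed little. On both arrays 10 were above the floor: 6 lay lower and 4 higher in KO, none past the ratio of 5 to 4, and their median was -0.02. Zyxin (Zyx) was at 14373 in KO against 14564 in CON skin, and non-muscle myosin heavy chain (Myh9) at 5838 in KO against 5275.5 in CON.

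Lists of genes that act on the junction genes were also measured. In that of beta-catenin turnover 3 of 5 were higher and 2 lower, with a median of 0.01, and 1 was lower past the ratio of 5 to 4, against 7.49% of all genes. This was Axin2, a scaffold of the destruction complex that is itself induced by Wnt signalling, at 561 in KO against 807 in CON skin, 1.44-fold lower. Btrc, the ubiquitin ligase subunit for beta-catenin, was at 458 in KO against 465 in CON. Of 6 transcription factors of the Snail, Zeb and Twist families, several of which repress Cdh1, 5 were higher (3 with raw intensities), all 5 within that ratio, and the median of the 6 was 0.11. Twist2 was at 1020.2 in KO against 986 in CON, and Zeb1 at 804 in KO against 787 in CON, and both turned lower with raw intensities, to -0.05 for Twist2 and -0.07 for Zeb1. Snai3 was at 282 in KO against 444 in CON, 1.58-fold lower. Among genes of cadherin shedding and phosphorylation, 6 of 7 were higher (5 with raw intensities), with a median of 0.20. Of these Adam15, a metalloprotease that can cleave E-cadherin, was higher past the ratio of 5 to 4, against 11.1% of all genes, at 1968 in KO against 1544 in CON, and fell short of it with raw intensities (0.26).

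Markers of further cells in the skin samples were as follows. Fibroblast markers were higher in 6 of 6 cases with a median of 0.15, and macrophage markers in 6 of 6 with a median of 0.37. Skeletal muscle markers were higher in 5 of 6 with a median of 0.18 and a summed intensity of 46221 in KO and 41254 in CON skin. T cell markers were higher in 3 of 4 with a median of 0.85. The part of these cells in the junction gene values was not tested.

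The direction of each measured junction gene was the same under the 7 other ways of processing the arrays. Most of these could not have turned it. An offset, no filter and the receptor floor keep the probe of a gene and the order of its KO and CON values. Both neqc and normexp keep the order of signals within an array and give the arrays the same quantiles. The authors' normalized columns share their quantiles as well, so the direction follows from the same ranks. Only the raw intensities shifted to the same median left the direction of each gene open. The mean over probes changed only Cdh3 and Ctnnb1, whose probes above the floor were all lower. Ctnnb1 ran from -0.52 to -0.37 on the log2 difference scale, Cdh3 from -0.69 to -0.46, Dsc1 from -0.64 to -0.35 and Ctnna1 from -0.30 to -0.25. Jup ran from 0.25 to 0.53. Cdh1 moved from 0.00 to -0.11 with raw intensities shifted to the same median. That scaling also turned the balance of all genes: of those past the ratio of 5 to 4, 59.8% were higher in KO with the authors' normalization and 39.8% with the raw intensities. The median of all genes was 0.02 in the first case and -0.04 in the other, and 6 of the 8 junction genes were lower in both.

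**Figure D4:**
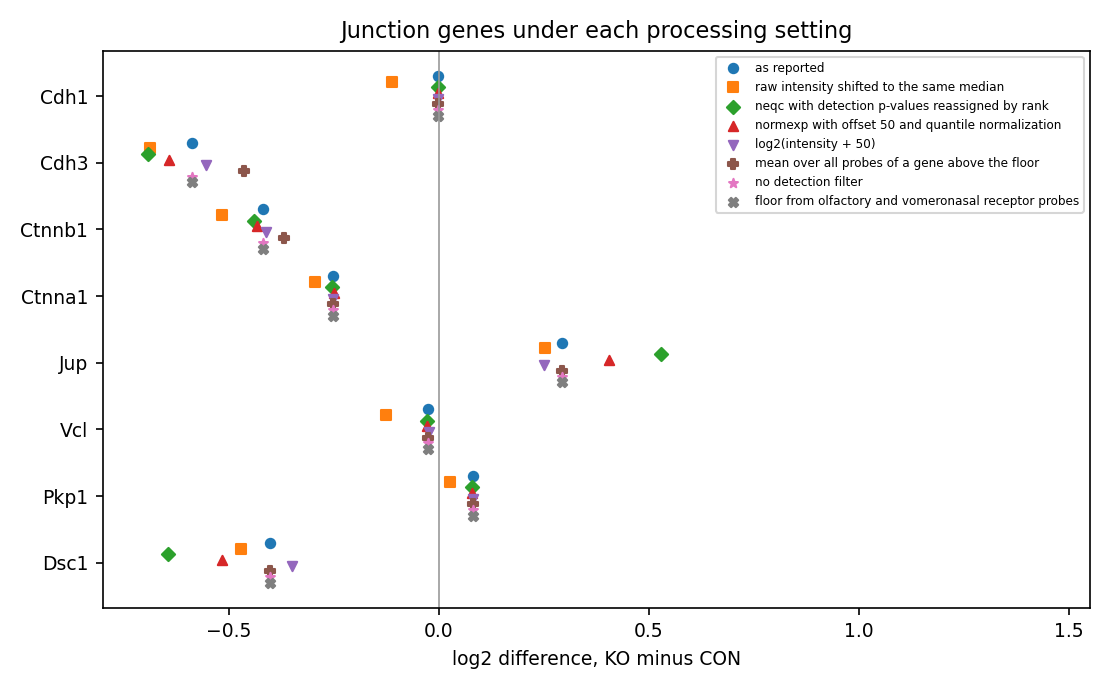
Log2 difference, KO minus CON, of the 8 measured junction genes (rows) as reported and under the 7 alternative settings, with a symbol per setting. Cdh3, Ctnnb1, Ctnna1 and Dsc1 stay left of 0 and Jup right of it under each setting, and the dim genes Jup and Dsc1 move farthest with neqc. Among the alternatives, only the raw intensities shifted to the same median could have moved one of these genes across 0.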

How the data were processed

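Total RNA of wounded skin was hybridised to Illumina bead arrays with 1 colour, per the labels' protocols, and per the submitters' processing notes GenomeStudio 2011.1 was used. The deposited tables hold a linear intensity per probe for 25697 probes, once as raw average bead signal and once after the authors' normalization between the arrays. The background step and the kind of normalization are not given in those sources. Both normalized columns have the same quantiles (1 of all ranks differed by over 1%), and the series matrix equals them, with 0 probes differing. The scale is linear and uncentred, with 169.9 as the median of each column.

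The deposited detection p-value columns do not follow the order of the signals (rank correlation 0.008 on the KO array and 0.009 on the CON array). They were used only to count detected probes: on each array, as many of the brightest probes as there were p-values under 0.01 were taken as above the floor. This floor was 176.8 on the KO array and 172.3 on the CON array in normalized intensity. Of 1332 olfactory and vomeronasal receptor probes, 0.45% on the KO array and 0.53% on the CON array lay above it.

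Differences are log2 of the authors' normalized intensity without offset, KO minus CON. Background remains in these values, so folds of dim probes are understated. For each gene the brightest probe was used. The RefSeq table of build GRCm38.p6 gave current names for 25376 probes, and the members were taken by the symbol in the file, as their rule states. The members and gene lists were chosen with earlier results of these data known. With 1 array per group there is no test and no p-value: counts are of genes past a ratio of 5 to 4 (0.32 on the log2 scale) and past 1.5-fold. In each list every gene past the first and the 2 brightest genes above the floor are named, and for cell type markers at most 2 genes per list. A gene that this rule names is not reported here. The counting was tested on simulated data. Alternatives were raw intensity shifted to the same median, limma's neqc (limma 3.58.1, R 4.3.3) with the p-values reassigned by rank of signal, normexp with an offset of 50 and quantile normalization, an offset of 50, the mean over probes, no filter, and a floor at the 99th percentile of receptor probes. Promoters came from the RefSeq table of GRCm38.p6.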

Additional observations from a re-analysis of the deposited data

How the results depend on the processing

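The median log2 difference of the junction genes, -0.14 as reported, was -0.21 with raw intensities shifted to the same median. It was -0.14 with neqc, with normexp and with an offset of 50. No filter and the receptor floor leave the values of these genes unchanged and could not move it. It moved by less than 0.58 (1.5-fold) under each of the 7 alternatives, a limit wider than the median itself. No gene past the ratio of 5 to 4 changed sign among the members and listed genes. Only the raw intensities shifted to the same median and the mean over probes could have changed a sign. The other alternatives keep the order of the KO and CON values of a probe. Counts over all genes depended on the processing. With neqc, 1738 genes were higher in KO past the ratio of 5 to 4 and 1136 lower, and 663 and 422 past 1.5-fold, against 995, 669, 318 and 224 as reported. With raw intensities shifted to the same median, 1037 genes were lower past the ratio of 5 to 4, and 199 were higher past 1.5-fold. neqc removes the background that compresses dim genes. The fold of Cdh3 past 1.5 was lost with an offset of 50 and with the mean over probes. Jup passed the ratio of 5 to 4 with neqc and with normexp, and Dsc1 passed 1.5-fold with neqc. No paired analysis was possible because each genotype had 1 array. Signal over background limits Jup, Dsc1 and both dimmer Cdh3 probes above the floor, all at under 2.5 times the floor. A gene below the floor on both arrays is not shown to be absent.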

Other observations

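Other members of the cadherin superfamily (protocadherins, Celsr, Fat, calsyntenins and further Cdh genes), chosen after the values were seen, were mostly below the floor: of 83 genes on the array, 10 were above it on both arrays and 69 on neither. Of the 10, 6 were higher and 4 lower in KO, with a median log2 difference of 0.06, and 3 passed 1.5-fold, 2 higher and 1 lower, against 3.56% and 2.51% of all genes. Clstn3, a calsyntenin, was at 1510.4 in KO against 596.5 in CON skin, 2.53-fold higher. Cdhr1 was at 767 in KO against 404 in CON, 1.90-fold higher. The protocadherin Pcdh7 was at 659 in KO against 1017 in CON, 1.54-fold lower. Celsr2, at 1362 in KO and 1515 in CON, and Celsr1, at 178 in KO and 196 in CON, which act in the planar polarity of skin, stayed within the ratio of 5 to 4.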
